A study of Homo sapiens with 6 samples.

Results

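Interleukin 11 and the genes through which its receptor signals were followed in HepG2 cells after DGUOK knockdown. The group holds 10 genes: the ligands IL11, IL6, LIF and CLCF1, the receptor chains IL6R, IL11RA, IL6ST and OSMR, the transcription factor STAT3 and the feedback inhibitor SOCS3. They are 10 of the 34036 genes in the count table. They were chosen with the measured siDGUOK against siControl contrast of these libraries in view, so their values are given as a description. They were fitted with all other genes, and whether they pass the thresholds is told as a description too, with no p-value.

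HepG2 is a human liver cell line that grew out of a hepatocellular carcinoma. Cells received either a pool of siRNAs against DGUOK, the gene of mitochondrial deoxyguanosine kinase, or a non-targeting siRNA, and RNA was sequenced in bulk at 48 h. The design text describes 3 independent replicates for siControl and 3 for siDGUOK, cultured and processed in parallel. The treatment field names siControl for all 6 samples, so the groups were taken from the sample titles. The cells are 1 line and carry the knockdown for 48 h, with siRNA and transfection reagent present in both groups. The siControl libraries held 19065684, 18915508 and 10527216 counts in replicates 1, 2 and 3. The siDGUOK libraries held 18613138, 15978314 and 21334876 counts in the same order.

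DGUOK itself was measured first, as a check of the labels. Its level was 54.4, 53.1 and 48.2 CPM (counts scaled to library size with TMM factors of edgeR) in siControl and 9.08, 10.5 and 6.72 CPM in siDGUOK replicates 1, 2 and 3. Every siDGUOK library lay below every siControl library. DGUOK fell by 2.57 on the log2 scale (standard error 0.19, adjusted p = 1.64e-08, edgeR's quasi-likelihood test with Benjamini-Hochberg adjustment over 14476 genes).

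The cytokines of the IL6 family signal through a shared receptor chain, gp130, which is encoded by IL6ST. IL6, IL11 and CLCF1 first bind a chain of their own, IL6R, IL11RA or CNTFR. LIF and oncostatin M bind without such a chain, and gp130 pairs with LIFR for LIF and CLCF1 and with LIFR or OSMR for oncostatin M. Bound receptors activate JAK kinases, which phosphorylate STAT3, and STAT3 induces SOCS3, an inhibitor of the same receptor complex. In hepatocytes the pathway is known for switching on acute-phase protein genes.

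IL11 had the largest difference among the 9 of these genes with enough counts to be fitted. Counts of IL11 were 165, 106 and 145 in siControl and 3362, 3446 and 5112 in siDGUOK replicates 1, 2 and 3. Its level was 8.81, 5.65 and 13.8 CPM in the siControl libraries and 182, 212 and 235 CPM in the siDGUOK libraries. The groups were far apart: the lowest siDGUOK value was 13.1 times the highest siControl value. The group means were 9.43 ± 4.12 CPM and 210 ± 26.9 CPM (SD, n = 3). As fitted by edgeR, the log2 fold change was 4.53 (standard error 0.24). Ordered by log2 fold change, IL11 stood at place 65 among the 14476 genes tested. In bulk RNA, more cells that express a gene and more RNA of it per cell cannot be told apart. DESeq2's shrinkage, which pulls uncertain fold changes towards 0, gave 2.99.

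IL11 (ENSG00000095752.6) lies on the minus strand of chromosome 19 of GRCh38, from 55364382 to 55370463. Its promoter window from RefSeq on GRCh38.p14, chr19:55370414-55370713 on the minus strand, reaches from 250 bases before the start of the gene to 50 bases after it. It is shown because IL11 is the gene the values turn on. The capitals mark the letters of an AP-1 motif.
IL11: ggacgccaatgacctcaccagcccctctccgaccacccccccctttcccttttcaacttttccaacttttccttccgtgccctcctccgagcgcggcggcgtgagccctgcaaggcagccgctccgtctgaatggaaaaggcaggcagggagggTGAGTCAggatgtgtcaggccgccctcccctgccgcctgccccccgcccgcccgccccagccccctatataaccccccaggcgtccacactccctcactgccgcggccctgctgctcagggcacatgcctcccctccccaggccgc

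RefSeq windows of this kind were matched for 8 of the 10 genes (10 windows in all, since IL11RA and SOCS3 have 2 each); LIF and CLCF1 were not among them. Both strands were searched for an AP-1 motif, TGANTCA, and for a STAT motif, TTCNNNGAA. The AP-1 letters were found in the windows of 3 genes, IL11, IL6R and OSMR. Counted from the RefSeq start of each window, the match began 96 bases upstream in IL11, 37 bases downstream in IL6R and 3 bases downstream in OSMR. The starts that Gencode 44 gives for IL6R and OSMR, chr1:154405193 and chr5:38845858, lie upstream of those RefSeq starts. The stretches around the IL6R and OSMR matches follow, on the plus strand at chr1:154405369-154405392 and chr5:38846004-38846032, with the motif letters in capitals for comparison with IL11.
IL6R: gtccgccgctcTGAGTCAtgtgcg
OSMR: tgccccgcagcTGATTCAtagccccggcc
Of all 35116 RefSeq windows of 300 bases, 7.71% hold the AP-1 letters and 7.66% the STAT letters. No window of these 8 genes holds the STAT letters. The windows of SOCS3 and IL6 do not cover the start that Gencode 44 gives for those genes, so the bases around it were not searched. A match is a string of letters, and binding was not measured.

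LIF, a cytokine that acts through LIFR and gp130, had 12.4, 21.2 and 24.1 CPM in siControl and 42.1, 74.5 and 45.8 CPM in siDGUOK replicates 1, 2 and 3. All 3 siDGUOK values lay above all 3 siControl values, with replicate 2 the highest. The log2 fold change of LIF was 1.50 (standard error 0.24). CLCF1, which encodes cardiotrophin-like cytokine factor 1, had 33 to 57 counts per siControl library and 103 to 145 per siDGUOK library. Its level was 3.04, 1.97 and 3.15 CPM in siControl and 5.57, 7.26 and 6.67 CPM in siDGUOK. The groups did not overlap, but the counts are low and the log2 fold change of 1.26 came with a standard error of 0.43. CLCF1 met the threshold for a call with all libraries, also with DESeq2's shrunken fold change, which was 0.73 on the log2 scale. It no longer met it when any 1 of the 6 libraries was left out (log2 fold changes of 1.07 to 1.37), with the replicate number as a block, or without a filter on low counts.

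IL6, the cytokine after which the family is named, had 0 counts in each of the 6 libraries. A count of 0 allows up to 3 counts, which is 0.160, 0.160 and 0.286 CPM in siControl and 0.162, 0.185 and 0.138 CPM in siDGUOK replicates 1, 2 and 3. This limit covers counting error only. No fold change can be given for IL6, and the sum of the ligand levels came from IL11, LIF and CLCF1.

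Levels of different genes were compared per exon length, as TPM (counts over length, scaled to the library sum) over genes of at least 200 bp. The summed level of the ligands was 29.5, 31.5 and 48.7 TPM in siControl replicates 1, 2 and 3. In siDGUOK replicates 1, 2 and 3 it was 295, 367 and 378 TPM. IL11 made up 40.4%, 24.4% and 39.4% of that sum in siControl and 83.0%, 77.3% and 85.0% in siDGUOK. Within a library, the per-length level of IL11 was 1.03, 0.386 and 0.828 times that of LIF in siControl. In siDGUOK that ratio was 6.23, 4.11 and 7.42, so the ratios of the 2 groups did not overlap.

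**Figure D1:**
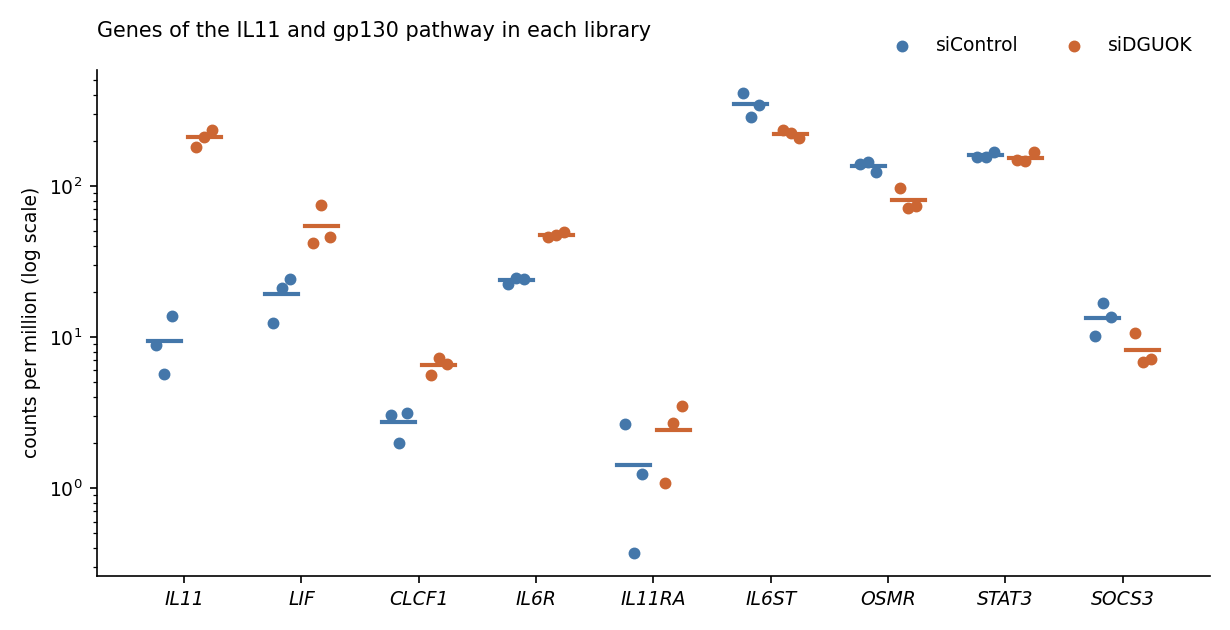
Levels in CPM (log axis) of 9 of the 10 genes in each library, with 1 point per library and a bar at each group mean. IL11 spans 5.65 to 13.8 CPM in siControl and 182 to 235 CPM in siDGUOK, STAT3 overlaps between the groups, and IL6 is not drawn because it has 0 counts in every library.

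IL6R, the chain that binds IL6, had 22.4, 24.7 and 24.3 CPM in siControl and 45.6, 47.6 and 49.7 CPM in siDGUOK replicates 1, 2 and 3. The replicates of each group lay close together and the groups did not overlap. The log2 fold change of IL6R was 1.00 (standard error 0.15), and its range without 1 library was 0.96 to 1.03, the narrowest among the receptor chains.

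IL11RA, the chain that binds IL11, was the least abundant of the genes with counts. It had 50, 7 and 13 counts in siControl and 20, 44 and 76 counts in siDGUOK replicates 1, 2 and 3. These are 2.67, 0.373 and 1.24 CPM in siControl and 1.08, 2.71 and 3.50 CPM in siDGUOK. The groups overlap, since siControl replicate 1 lay above siDGUOK replicate 1 and close to siDGUOK replicate 2. The log2 fold change of 0.76 had a standard error of 0.87, and it ran from 0.30 to 1.61 when 1 library was left out. With these counts and this spread between replicates, IL11RA cannot be placed in 1 group above the other. Exons of IL11RA also share 1706 bp with a readthrough gene on the same strand in Gencode 44. That gene is not in the count table, so whether reads were lost to it is not known.

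IL6ST, which encodes gp130, was the most abundant of the 10 genes in siControl. Its level was 412, 285 and 346 CPM in siControl and 236, 223 and 208 CPM in siDGUOK replicates 1, 2 and 3. The siDGUOK values were all below the siControl values and lay closer together, with SDs of 13.9 CPM against 63.8 CPM (n = 3). The log2 fold change of IL6ST was −0.65 (standard error 0.11). OSMR, which pairs with gp130 to form the oncostatin M receptor, had 139, 143 and 123 CPM in siControl and 96.3, 72.0 and 73.4 CPM in siDGUOK. Here too the groups did not overlap, and the log2 fold change of OSMR was −0.75 (standard error 0.12). Exons of OSMR share 229 bp with RICTOR on the opposite strand, and counting by default does not use strand.

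Both IL6ST and OSMR had lower levels in siDGUOK, and their ratio within a library overlapped between the groups. The per-length level of IL6ST was 1.76, 1.18 and 1.67 times that of OSMR in siControl and 1.46, 1.85 and 1.68 times in siDGUOK. Relative to IL6R, IL6ST stood at 10.7, 6.69 and 8.26 in siControl and at 3.00, 2.72 and 2.43 in siDGUOK, with no overlap. The ratio of IL11 to IL6ST was 0.0963, 0.0893 and 0.180 in siControl and 3.47, 4.28 and 5.10 in siDGUOK. Per exon length, the ligand transcript was thus below the gp130 transcript in each siControl library and above it in each siDGUOK library. In CPM, IL11 had 182, 212 and 235 and IL6ST 236, 223 and 208 in siDGUOK, so there the order depends on the lengths used.

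**Figure D2:**
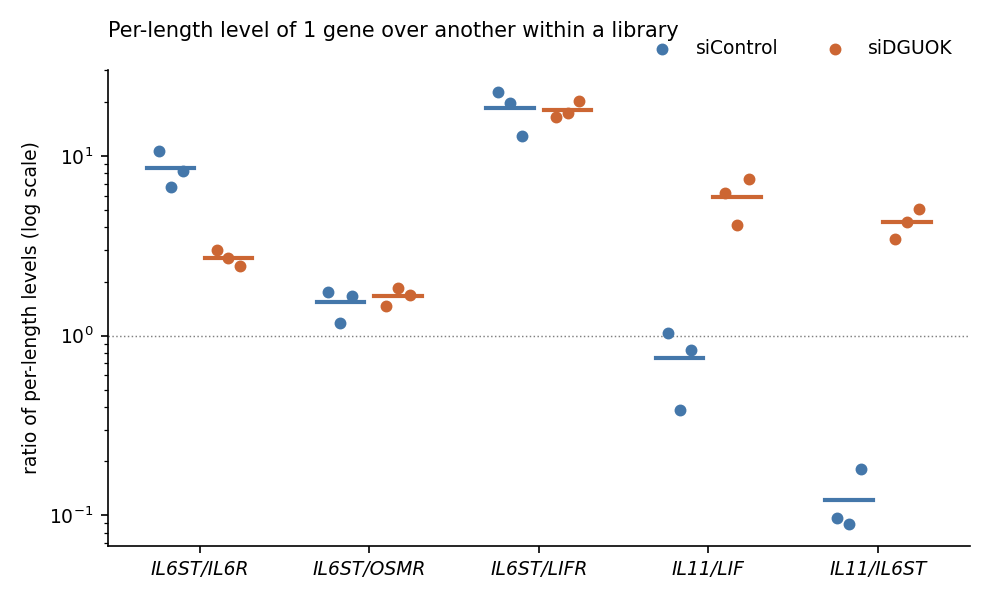
Ratio of the per-length levels of 2 genes within each library (log axis), with 1 point per library, a bar at each group mean and a dotted line at 1. IL6ST over IL6R is lower in siDGUOK (2.43 to 3.00) than in siControl (6.69 to 10.7), IL11 over LIF and IL11 over IL6ST are higher, and IL6ST over OSMR and over LIFR overlap.

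STAT3, the transcription factor downstream of gp130, had 156, 155 and 168 CPM in siControl and 148, 147 and 168 CPM in siDGUOK replicates 1, 2 and 3. The groups overlapped. The log2 fold change of STAT3 was −0.05 (standard error 0.09), and its range without 1 library was −0.13 to −0.01. The counts measure STAT3 transcript and not its phosphorylation. SOCS3, the feedback inhibitor that STAT3 induces, had 10.1, 16.7 and 13.5 CPM in siControl and 10.6, 6.83 and 7.18 CPM in siDGUOK. Only siDGUOK replicate 1 reached into the siControl range, just above siControl replicate 1. The log2 fold change of SOCS3 was −0.71 (standard error 0.29), and it ran from −0.96 to −0.52 when 1 library was left out.

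The call used here needs an adjusted p below 0.05 together with a log2 fold change beyond 0.5 in size, the cut-offs that the study applied to shrunken fold changes from DESeq2 and that are applied here to edgeR's unshrunken ones. The results of the study add a lower limit on mean TPM, which was not applied here and which bears on genes of low level such as CLCF1. Of the 10 genes, 9 passed the filter on low counts and 6 met the call, 4 higher in siDGUOK (IL11, LIF, CLCF1, IL6R) and 2 lower (IL6ST, OSMR). Over all genes tested 14.1% were called in either direction, 7.42% higher and 6.68% lower. The 6 called genes were also the ones whose groups did not overlap, which held for 36.0% of all genes tested. Since these genes were selected on this contrast, nothing is read from their count.

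In siControl the order of per-length levels was led by IL6ST at 105 ± 19.0 TPM (SD, n = 3). OSMR followed at 68.9 ± 4.53 TPM and STAT3 at 52.2 ± 2.95 TPM, each with every library above every library of the next gene. The order between genes rests on summed exon lengths, 7174 bp for OSMR and 11208 bp for STAT3. In mean CPM of siControl, STAT3 was above OSMR (160 and 135), so their order depends on the length used. LIF at 18.2 ± 5.95, SOCS3 at 18.0 ± 4.39 and IL11 at 12.9 ± 5.81 TPM each overlapped with the next gene in this order. IL6R came next at 12.5 ± 0.724 TPM, and every library of IL6R was above every library of CLCF1. CLCF1 at 5.43 ± 1.33 and IL11RA at 0.991 ± 0.797 TPM came last before IL6. In siDGUOK, IL11 led at 283 ± 38.3 TPM, with each library above each library of IL6ST. IL6ST at 66.6 ± 3.71, LIF at 50.5 ± 16.1, STAT3 at 49.8 ± 4.47 and OSMR at 40.6 ± 6.80 TPM overlapped with their neighbours. IL6R at 24.6 ± 1.25 TPM was below all of these, followed by CLCF1 at 12.8 ± 1.68, SOCS3 at 10.9 ± 2.77 and IL11RA at 1.67 ± 0.859 TPM. CLCF1 and SOCS3 overlapped.

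**Figure D3:**
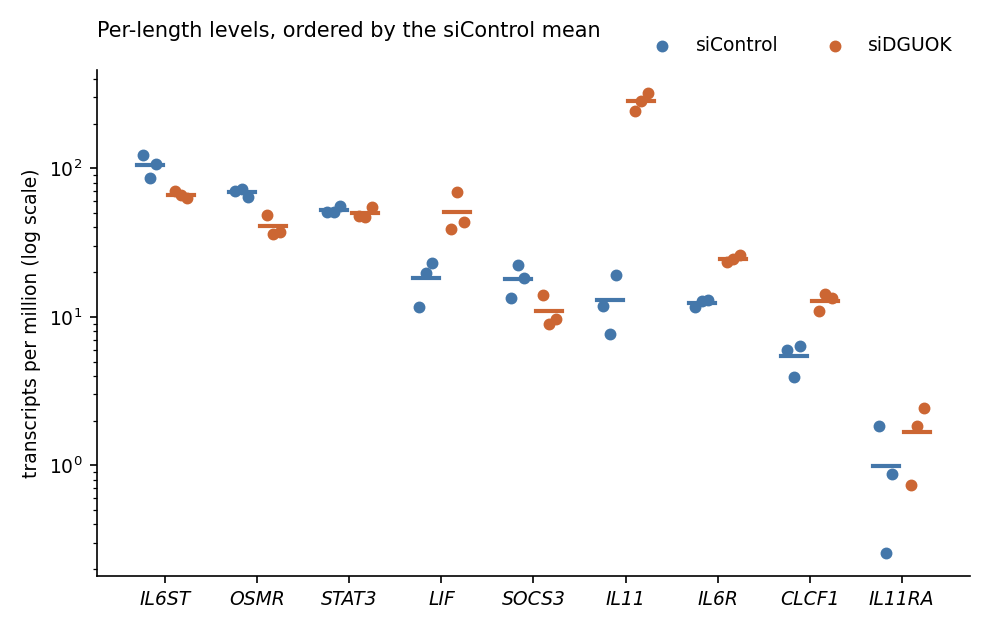
Per-length levels in TPM (log axis) of 9 genes in each library, ordered by the siControl mean, with 1 point per library and a bar at each group mean. IL11 moves from 12.9 TPM, below SOCS3, to 283 TPM, above IL6ST in every siDGUOK library.

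The genes whose log2 CPM followed that of IL11 most closely over the 6 libraries were F2RL1, MVP, EREG, CLDN11 and AP1S3. Pearson's r was 0.999 for F2RL1 and 0.997 for AP1S3, and 1093 genes had r above 0.9. The libraries fall into 2 groups that differ in IL11, so this likeness is a description of the group difference and carries no p. F2RL1, which encodes a protease-activated receptor, had 91.4 CPM in siControl and 366 CPM in siDGUOK on average, and EREG, which encodes the growth factor epiregulin, had 4.02 and 18.0 CPM. Once the mean of each group was removed, the closest genes were UTP14A, AVEN, BORCS5, PHACTR2 and LRRN4, with r of 1.00 for UTP14A and 0.995 for LRRN4. With 6 values and 285 genes above 0.9, this second order describes replicate scatter in these libraries.

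Other cytokines and receptor chains of the pathway were taken from a list of 8 genes that shares none with the 10. This list and those that follow were chosen with earlier results of these data known. Their counts, medians and p-values are therefore given as a description. The list of cytokines and receptor chains was also shortened by 1 gene after its values were seen, so no weight is put on its count or median. CNTF and CNTFR had 0 counts in all 6 libraries and OSM and IL27 were too low to test, so 4 were tested. The median log2 fold change of the 4 was −0.56, against 0.02 over all genes tested. Without siDGUOK replicate 2 that median was −1.14. EBI3, a subunit of interleukin 27, was the 1 gene called, where 14.1% of all genes tested were called. EBI3 went from 6.92 ± 0.895 to 1.90 ± 0.614 CPM (SD, n = 3), so it fell by 1.86 on the log2 scale (adjusted p = 0.00673, edgeR's quasi-likelihood test with Benjamini-Hochberg adjustment), and was lower in each siDGUOK library. With DESeq2's shrinkage the log2 fold change of EBI3 was −1.05. LIFR, the chain that LIF binds, had 18.2, 14.7 and 26.9 CPM in siControl and 14.5, 13.0 and 10.4 CPM in siDGUOK, a difference of −0.65 on the log2 scale (standard error 0.25; edgeR's quasi-likelihood test, adjusted p = 0.0767). LIFR was called without siControl replicate 2, at −0.83, and was −0.38 and not called without siControl replicate 3. IL27RA, at −0.48, and CTF1, at −0.45, were not called. CTF1 ran from −1.60 without siDGUOK replicate 2 to −0.05 without siControl replicate 2.

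Of 8 genes that carry the signal inward from gp130, all were tested and 1 was called, beside 14.1% of all genes tested. This list, too, was shortened by 1 gene after its values were seen, so no weight is put on its count or median. SHC1, an adaptor of the Ras and ERK branch, rose from 132 ± 5.06 to 298 ± 21.3 CPM (SD, n = 3), or by 1.18 on the log2 scale (standard error 0.08; edgeR's quasi-likelihood test, adjusted p = 1.17e-08). SHC1 was higher in each siDGUOK library, and it is among the genes the study singled out on these libraries, so its call is not independent evidence. JAK1, the main kinase bound to gp130, had 93.8, 70.9 and 83.0 CPM in siControl and 93.9, 104 and 104 CPM in siDGUOK. On the log2 scale JAK1 differed by 0.28 (standard error 0.11; edgeR's quasi-likelihood test, adjusted p = 0.0944). Without siControl replicate 1 the difference was 0.39 and passed the adjusted p but not the fold threshold. Without siControl replicate 2 it was 0.18. JAK2, TYK2, PTPN11, GAB1, GRB2 and SOS1 had log2 fold changes between −0.35 for SOS1 and 0.35 for JAK2 and were not called. The median of the 8 was −0.03, and 0.04 without siDGUOK replicate 3.

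Another list held 9 inhibitors and sheddases, the latter being proteases that release receptor chains from the cell surface. Of the 9 tested, 2 were called, both higher, beside 7.42% of all genes tested called higher. Without a filter on low counts, and with the replicate number as a block, 3 were called, the added gene being SOCS1, which was lower. SOCS2 rose from 7.47 ± 0.742 to 14.9 ± 2.54 CPM (SD, n = 3; log2 fold change 1.00, adjusted p = 0.0101, edgeR's quasi-likelihood test). PIAS3, which encodes an inhibitor of STAT3, rose from 9.04 ± 3.85 to 17.3 ± 3.86 CPM (log2 fold change 0.92, adjusted p = 0.0330, edgeR's quasi-likelihood test). The PIAS3 call was lost without siControl replicate 2 (log2 fold change 0.83), siControl replicate 3 (0.70), siDGUOK replicate 1 (0.94) or siDGUOK replicate 2 (0.74), and the SOCS2 call without siDGUOK replicate 1 (0.84). ADAM10, a sheddase of IL6R, had a log2 fold change of −0.39 and passed the adjusted p (0.00313, edgeR's quasi-likelihood test) but not the fold threshold. SOCS1, a relative of SOCS3, had 11.9, 12.7 and 11.2 CPM in siControl. In siDGUOK it had 12.1, 2.34 and 2.94 CPM, so replicate 1 lay with the siControl libraries, as it did for SOCS3. On the log2 scale SOCS1 differed by −1.04 (standard error 0.46), which was not called with all libraries. It was called lower without siDGUOK replicate 1, at −2.19, and was −0.67 and not called without siDGUOK replicate 2. Over the 9 brakes and sheddases the median was 0.20, and it ran from 0.09 to 0.28 when 1 library was left out.

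A list of 17 genes known as STAT3 targets was tested in full. Of these, 5 were called higher, 2 lower and 10 neither way, beside 7.42% higher and 6.68% lower over all genes tested. Their median log2 fold change was 0.26 against 0.02 over all genes tested, and it was 0.13 without siDGUOK replicate 1. TIMP1, an inhibitor of matrix metalloproteinases, rose from 36.9 ± 6.05 to 128 ± 9.49 CPM (SD, n = 3; log2 fold change 1.79, standard error 0.13, adjusted p = 1.11e-08, edgeR's quasi-likelihood test). JUNB, a subunit of AP-1, rose by a log2 fold change of 1.31, CCND1, the gene of cyclin D1, by 0.79 and BCL2L1, the gene of the survival protein BCL-XL, by 0.54. These 4 genes stand in lists that the study drew from these libraries and are not independent evidence of a direction. HIF1A, at 0.50, was barely over the fold threshold and lost its call with DESeq2 (0.49, or 0.47 shrunken), with RLE normalization (0.49), without siControl replicate 2 (0.39) and without siDGUOK replicate 1 (0.40). BCL2L1 lost its call without siDGUOK replicate 3 (0.45).

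The 2 STAT3 targets called lower were ICAM1 and BCL6. ICAM1, the gene of an adhesion molecule, had 193 ± 23.4 CPM in siControl and 101 ± 11.8 CPM in siDGUOK (SD, n = 3) and fell by 0.94 on the log2 scale (adjusted p = 3.63e-06, edgeR's quasi-likelihood test). BCL6, the gene of a transcriptional repressor, fell by 0.84 on the log2 scale (adjusted p = 0.00469, edgeR's quasi-likelihood test). MCL1 and VEGFA passed the adjusted p with log2 fold changes of 0.30 and 0.36, under the fold threshold. MYC, at 192 ± 8.14 and 195 ± 15.6 CPM, PIM1 and FOS were not called. Most of these targets respond to other signals as well, and the part of STAT3 in their levels was not tested.

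**Figure D4:**
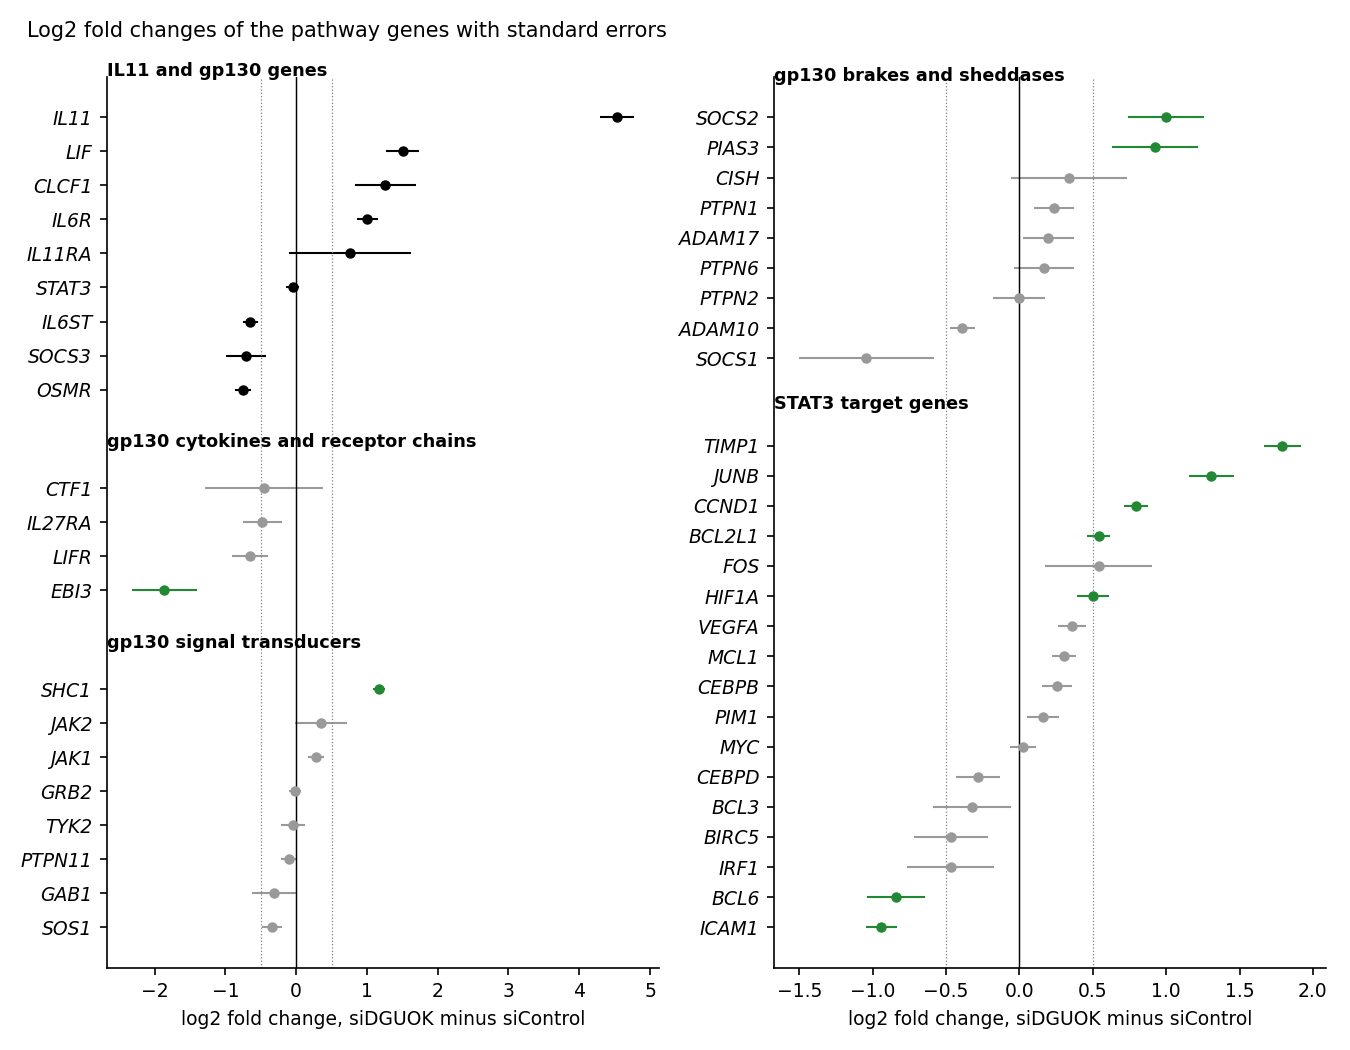
Log2 fold changes (siDGUOK minus siControl, points) with their standard errors (bars) for the 9 genes of the IL11 and gp130 group that were fitted, in black, and for 4 lists of other pathway genes, green where called and grey where not. Dotted lines mark the fold threshold of 0.5 in each direction; IL11 lies at 4.53, and among the listed genes TIMP1 at 1.79 and EBI3 at −1.86 lie farthest out. The horizontal scales of the left and right panels differ.

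Acute-phase genes, many of which the IL6 family raises in liver cells, were read from a list of 18. This list was also chosen with earlier results of these data known, so its counts, median and p-values are a description. SAA2 is not in the count table, CRP had 0 counts in all 6 libraries, and SAA1, LBP and ITIH4 were too low to test. Of the 13 tested genes, 8 were called lower and 0 higher in edgeR's quasi-likelihood test, beside 6.68% and 7.42% of all genes tested. At an adjusted p under 0.05 alone 9 were lower and 0 higher, where 2847 of all 14476 genes tested passed in either direction. In DESeq2 8 were called, where 2151 genes were called in all. The median log2 fold change was −1.07, against 0.02 over all genes tested.

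The 3 fibrinogen chain genes were among those lower in siDGUOK. FGA had 2153 ± 140 CPM in siControl and 593 ± 75.6 CPM in siDGUOK (SD, n = 3) and fell by 1.86 on the log2 scale (adjusted p = 3.78e-11, edgeR's quasi-likelihood test). FGB fell by 1.90 and FGG by 1.13 on the same scale. HPX, the gene of the heme carrier hemopexin, went from 24.3 ± 4.02 to 4.29 ± 0.348 CPM and fell by 2.50 on the log2 scale. The other called genes were A2M, FGL1, HP and CP, which fell by 1.33, 1.26, 1.07 and 0.80 on the log2 scale. SERPINA1, the most abundant gene of the list, had 7770 ± 374 CPM in siControl and 7875 ± 553 CPM in siDGUOK, with overlapping libraries and a log2 fold change of 0.02 (standard error 0.07). SERPINA3, HAMP, ORM1 and ORM2 had log2 fold changes of 0.43, 0.17, −0.14 and −0.31 and were not called.

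**Figure D5:**
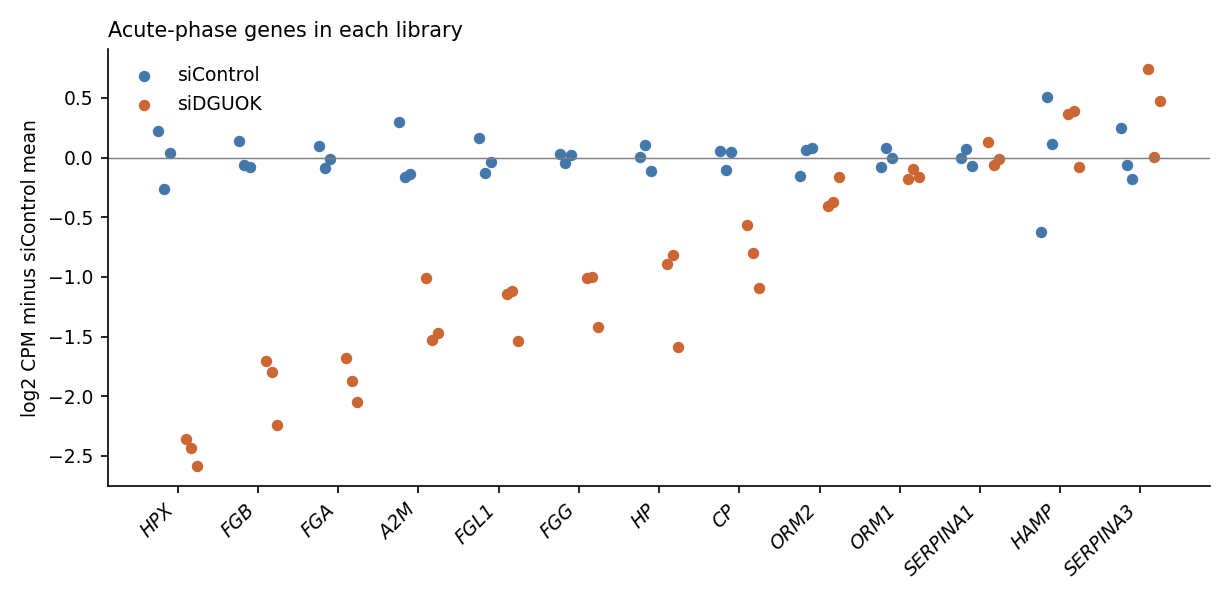
Log2 CPM of each tested acute-phase gene in each library, relative to its siControl mean (line at 0), with 1 point per library and genes ordered by log2 fold change. From HPX to CP the siDGUOK points lie below the siControl points, and SERPINA1, HAMP and SERPINA3 overlap between the groups.

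The 7 hepatocyte markers listed here were lower as well. The list was shortened by 1 gene after its values were seen, so no weight is put on the count of calls. The 7 markers given were called lower, beside 6.68% of all genes tested, and each had every siDGUOK library below every siControl library, where groups did not overlap for 36.0% of all genes tested. Without siControl replicate 1, or without siDGUOK replicate 3, 6 of them were called. Their summed level was 43710, 37740 and 37510 CPM in siControl and 18530, 16120 and 14530 CPM in siDGUOK replicates 1, 2 and 3. ALB, the most abundant, fell by 1.58 on the log2 scale, and HNF4A, the gene of a liver transcription factor, by 0.51. The fall of HNF4A was barely over the fold threshold of 0.5. None of the 7 was at 0 in a library. Whether the lower acute-phase transcripts belong to the gp130 pathway or to the same difference as these markers was not tested.

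Markers of other cell types were low, and siDGUOK replicate 2 had the highest sum of each kind. The 5 immune markers summed to 3.95, 7.19 and 4.77 CPM in siControl and 6.38, 12.4 and 5.66 CPM in siDGUOK replicates 1, 2 and 3. None of the 5 was called, beside 14.1% of all genes tested, and their low counts leave little to read from that. PTPRC was the most abundant of them in siDGUOK replicate 2, with 129 counts, whereas CD14 was at 0 there. The 3 endothelial markers summed to 1.66, 1.39 and 2.29 CPM in siControl and 3.78, 56.2 and 4.05 CPM in siDGUOK. VWF led them in replicate 2 with 510 counts, and it was at 0 in siControl replicate 3 and siDGUOK replicate 3. The 5 mesenchymal markers summed to 12.1, 15.0 and 10.3 CPM in siControl and 34.4, 40.4 and 21.2 CPM in siDGUOK. COL1A1 was called higher (1.17 ± 0.752 and 19.4 ± 1.75 CPM), PDGFRB was called lower, beside 14.1% of all genes tested called either way. COL1A2 had 124 and 169 counts in siDGUOK replicates 1 and 2 and 0 in replicate 3, and DCN and LUM had 0 counts in siDGUOK replicate 3 and in each siControl library. siDGUOK replicate 1 held 25809, 58437 and 15357 counts of the T cell receptor segments TRDJ1, TRDJ2 and TRDJ4, and siDGUOK replicate 2 held 341, 91 and 44. These segments had 0 counts in the other libraries and were named after their values were seen. Whether these counts and the marker sums come from the HepG2 cells or from other material was not tested. Without siDGUOK replicate 1 the log2 fold change of IL11 was 4.60, and without siDGUOK replicate 2 it was 4.52. Of the 10 genes, 5 met the call in either of those fits. All genes called numbered 1882 and 1821 in them, against 2041 with every library.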

How the data were processed

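The counts per gene were deposited by the authors as whole numbers, neither normalized nor averaged. By the study's methods, reads on tRNA, rRNA, adapters and spike-ins were removed. The rest were aligned to GRCh38 with Gencode 27 in STAR 2.6.1, cleared of low-complexity reads with PRINSEQ Lite and counted with featureCounts 1.6.5 at default settings with a Phred minimum of 10. The submitters' processing notes also name Bowtie 1.1.2. The labels leave the choice between poly(A) selection and rRNA depletion unfilled. By default, featureCounts ignores strand and drops reads that overlap several genes, so overlapping and antisense genes are uncertain.

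In R 4.3.3, edgeR 4.0.16 was used to drop low genes (filterByExpr, minimum count 10), scale by TMM and fit a robust quasi-likelihood model on group alone. P-values were adjusted by Benjamini-Hochberg over all genes tested. Standard errors were taken as the absolute fold change on the log2 scale over the root of F. CPM used TMM-scaled totals, and log2 CPM a prior count of 2. TPM used the summed length of all exons of a gene in Gencode 44 on GRCh38, over genes of at least 200 bp. This minimum was chosen after seeing the data: genes under it took 27.5% of the per-length total in siDGUOK replicate 1 and under 1% in the others. All columns were mapped to samples by title. Replicate pairs differed by more than sampling noise, with chi-square over degrees of freedom of 10.9 to 27.2. The edgeR and DESeq2 fits were tested on simulated counts.

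The 10 genes and all lists were chosen with earlier results of these data known. The named genes are the 10, each called gene and up to 3 further genes of highest level in each of 5 pathway lists, DGUOK, the markers of hepatocytes and of immune, endothelial and mesenchymal cells, and 5 genes most correlated with IL11 before and after removing group means. The lists of cytokines and receptor chains, of transducers and of hepatocyte markers were each shortened by 1 gene after the values had been seen. SOCS1 and others outside this rule were named after their values were seen. As alternatives, DESeq2 1.42.0 was run plain and with shrinkage of fold changes, and edgeR with RLE or upper-quartile factors, no filter on low counts, a replicate block, no fold threshold for counts of genes, each library left out in turn and, chosen after seeing the data, TPM over all genes with a length. Library totals were 10527216 to 21334876 counts.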

Additional observations from a re-analysis of the deposited data

How the results depend on the processing

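For the fold changes of DGUOK, the 9 fitted genes of the group and the genes that the rule named from the 5 pathway lists, 44 in all, 528 values came from alternatives, of which 503 kept their direction and their side of the threshold, 19 kept the direction but lost the call, 1 gained a call and 5 changed sign. The sign changes came from leaving out 1 library, in genes near 0: GRB2 ran from −0.0650 to 0.0151 (also 0.00619), ADAM17 from −0.0127 to 0.357 and SERPINA1 from −0.0558 to 0.0618 (also −0.0131) on the log2 scale, and the cause was not tested. With 1 library left out, the other cytokines and receptor chains had 1 to 2 calls and the brakes and sheddases 1 to 2. Libraries of the same replicate number had correlations of 0.024, 0.0166 and −0.0022 across genes after the group means were removed. Those of different numbers ran from −0.0229 to 0.0021. No clear pairing was seen, but with 3 libraries in each group these values cannot show that pairing was absent. With the replicate number as a block, 2077 genes were called, 5 of the 10 genes of the group (CLCF1 was lost), and the log2 fold change of IL11 was 4.54. DGUOK ran from −2.72 to −2.42 and IL11 from 4.24 to 4.86 with 1 library left out. TPM over all genes with a length lowered the siDGUOK mean of IL6ST from 66.6 to 59.9 TPM.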
